A study of Homo sapiens
Mus musculus and Homo sapiens with 12 samples.

Results

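Human transcript levels in heterokaryons were compared between day 2 and day 1 after fusion. A heterokaryon is a fused cell in which nuclei of 2 parents share a cytoplasm without merging. Here the parents were mouse embryonic stem cells of the line D3 and human lung fibroblasts of the line MRC5. Day 2 and day 1 had 2 libraries each, and the labels of either day name no altered gene and no drug. At least 30000 heterokaryons were sorted by FACS for each library, and polyA RNA was sequenced, so mouse and human RNA of the same fused cells were read together. Heterokaryons at day 3 and co-cultures, in which both parents grew together unfused, with 2 libraries each, shared the estimate of spread and are given beside some results as values.

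The genes compared were those whose coding RefSeq accessions all lay before the point in accession order at which each of the 4 tables stops. A missing transcript there was taken as 0, and a gene's level is the sum over its coding transcripts. This held for 3536 of 10588 human genes listed in any table, and 2122 of them, at 1 RPKM or more in at least 2 of the 4 libraries, were tested. RPKM scales the reads of a transcript by its length and by the reads of its library; the unit was inferred from the values, and the depth of the libraries is unknown. POU5F1, which encodes the pluripotency factor OCT4, has coding accessions past the end of the shortest table and is not among the 3536.

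Fusion with a pluripotent cell exposes a fibroblast nucleus to the factors of the stem cell without DNA replication or division being needed. Genes silent in the fibroblast can then be transcribed from the human genome, while the fibroblast programme of matrix, contractile and signalling genes may persist or decline. In human embryos, a set of genes that includes LEUTX, DUXA, KHDC1L and members of the RFPL4, PRAMEF and TRIM43 families is transcribed transiently around the activation of the zygotic genome, in part under the homeobox factor DUX4. The time course was made to follow this kind of reprogramming, and the comparison asks what differed between the second and the first day.

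The fibroblast identity of the human RNA was visible on both days. All 11 covered fibroblast markers, such as COL1A1, VIM and SPARC, had values above 0 in at least 1 of the 4 libraries, and their summed level was 6535 to 6984 RPKM at day 2 and 9332 to 10179 RPKM at day 1. More covered genes had a value above 0 at day 2, with 2945 and 2540 genes, than at day 1, with 2241 and 2127 genes. In the other direction, the covered genes summed to 161458 and 161807 RPKM at day 2, against 203702 and 170019 RPKM at day 1. An exact 0 may be a failed estimate, because 3 of 47 covered ribosomal protein genes (RPL39, RPS20 and RPS3A) were listed at 0 in at least 1 of the 4 libraries. Fewer heterokaryons with a transcript and less of it per cell cannot be told apart in such bulk samples. Across genes, log2 levels correlated at r = 0.93 between the day 2 libraries, 0.87 between the day 1 libraries and 0.85 to 0.88 across days. The labels do not say that replicates were separate cultures, so p-values reflect no more than the spread among these libraries, which may be technical.

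Of 2122 genes tested, 7 passed an adjusted p of 0.05 (limma), which is 0.33% of the genes tested. PTX3, DPYSL2, PPY, LEUTX and KDM4E rose at day 2 (5 genes, 0.236%), and TAGLN2 and MTRNR2L6 fell (2 genes, 0.0943%). PTX3, DPYSL2 and TAGLN2 were named by a rule on abundance and separation of libraries. The other 4 lie below that abundance and were singled out after their values were seen. These 4 were at 0 in both libraries of 1 day and passed the filter on low values only through the other day. Each could therefore differ in 1 direction only, and its tied zeros add no spread for that day.

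PTX3, a secreted pentraxin of innate immunity encoded on chromosome 3, had 50.2 and 31.4 RPKM at day 2, against 6.21 and 5.82 RPKM at day 1. Both day 2 libraries lay above both day 1 libraries, and the log2 fold change, taken here and below on log2(RPKM + 1), was 2.54 (SE 0.35, limma adjusted p = 0.0431). Co-cultures stood at 32.6 and 35.7 RPKM and day 3 heterokaryons at 51.1 and 44.9 RPKM, so the day 1 libraries had the low values of these 4 groups. DPYSL2, a cytosolic protein that binds tubulin dimers and is best known in growing axons, had 88.8 and 99.96 RPKM at day 2, against 22.3 and 27.3 RPKM at day 1 (log2 fold change 1.89, SE 0.27, limma adjusted p = 0.0431). Its day 3 values of 82.6 and 87.2 RPKM lay near those of day 2, and its co-culture values of 26.3 and 30.4 RPKM near those of day 1.

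TAGLN2, an actin-binding protein of the transgelin family, had 237 and 245 RPKM at day 2, against 616 and 614 RPKM at day 1 (log2 fold change -1.35, SE 0.19, limma adjusted p = 0.0431). The day 2 libraries were the lowest of these groups, and co-cultures, at 629 and 606 RPKM, lay near day 1. Day 3, at 359 and 313 RPKM, lay in between and nearer to day 2.

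PPY, which encodes pancreatic polypeptide, had 6.05 and 7.42 RPKM at day 2 and was listed at 0 in both day 1 libraries (limma adjusted p = 0.0431). It was also listed at 0 in both day 3 and both co-culture libraries, so its values above 0 were found at day 2 only among these 8 libraries. LEUTX, a homeobox gene, had 14.5 and 6.80 RPKM at day 2 and was listed at 0 in both day 1 libraries (limma adjusted p = 0.0431). KDM4E, a gene of the KDM4 family of histone lysine demethylases, had 7.43 and 8.46 RPKM at day 2 and was listed at 0 in both day 1 libraries (limma adjusted p = 0.0431). No fold is given for these 3 genes, since their day 1 libraries were all listed at 0.

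The 7 calls lay close to the threshold, at the same adjusted p of 0.0431, and the next gene, KRT19, had 0.0639. With any 1 of the 4 libraries left out, none of the 7 passed: their limma adjusted p values then ran from 0.0735 to 0.259 over the 4 omissions. No gene was called after upper quartile scaling (lowest adjusted p 0.0523) or quantile normalization (lowest adjusted p 0.0597).

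**Figure D1:**
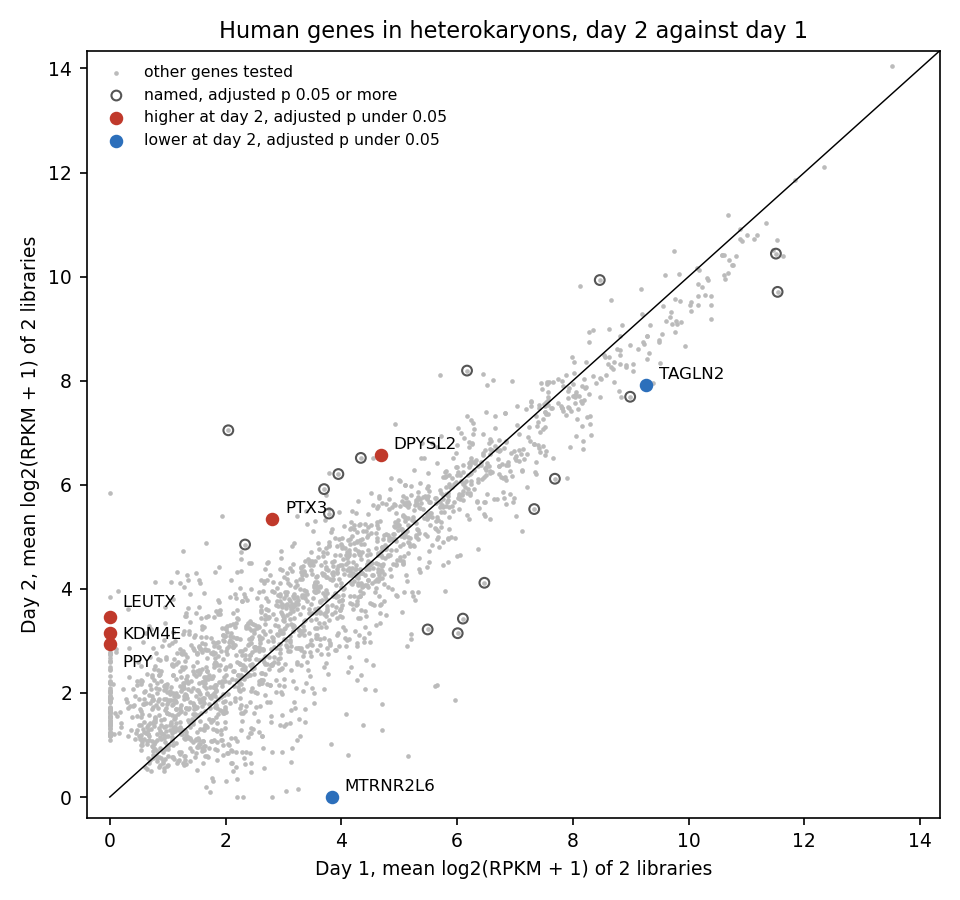
Mean log2(RPKM + 1) of the 2 day 2 libraries (vertical axis) against that of the 2 day 1 libraries (horizontal axis) for the 2122 genes tested; filled points are the 7 genes with an adjusted p under 0.05, open points the other genes named by the abundance rule, and the line marks equal levels. PPY, LEUTX and KDM4E sit on the left edge, at 0 on day 1, and MTRNR2L6 on the lower edge, at 0 on day 2.

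Beyond the 7 calls, at an unadjusted p under 0.05 there were 268 genes higher at day 2 (12.6% of those tested) and 143 lower (6.74%), in all 411 (19.4%), of which 65.2% were higher; upper quartile scaling lowered this share to 57.0% and quantile normalization to 49.6%. The libraries of the 2 days did not overlap for 645 genes in the higher direction (30.4%) and for 421 in the lower direction (19.8%). The median log2 fold change of all genes tested was 0.20 as deposited (0.12 when upper quartile scaled, 0.00 when quantile normalized), and the medians of gene lists below are to be read against it. Of the 2122 genes, 408 had both libraries at the filter's 1 RPKM or more on day 2 only, and 102 on day 1 only. In such genes the filter on low values favours that direction. In the lists below, a gene is counted as higher or lower where its libraries did not overlap between the days, and each such count is to be read against the shares of 30.4% and 19.8% over all genes.

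Several abundant or moderately abundant genes stood apart between the days without passing the adjusted threshold. KHDC1L, a KH domain gene of the early embryo, had 138 and 125 RPKM at day 2, against 8.21 and 0.854 RPKM at day 1. KRT19, a keratin of simple epithelia, had 259 and 329 RPKM at day 2, against 86.6 and 58.4 RPKM at day 1. TIMP3, an inhibitor of matrix metalloproteinases bound to the matrix, had 1106.5 and 863 RPKM at day 2, against 329 and 378 RPKM at day 1. All 3 had day 2 libraries above day 1 libraries, with limma adjusted p values of 0.0639 for KRT19 and 0.0922 for the other two.

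CCL2, the chemokine that attracts monocytes, had 52.2 and 67.6 RPKM at day 2, against 9.56 and 15.03 RPKM at day 1. INHBA, the subunit of activin A, had 90.8 and 90.2 RPKM at day 2, against 12.3 and 29.6 RPKM at day 1. GJA1, the gap junction protein connexin 43, had 63.6 and 83.4 RPKM at day 2, against 9.96 and 20.8 RPKM at day 1. ACVRL1, a type I receptor of the TGF beta family, and PAPPA, a protease that cleaves IGF-binding proteins, averaged 28.0 ± 3.12 and 42.7 ± 3.39 RPKM at day 2, against 4.35 ± 2.49 and 12.9 ± 2.42 RPKM at day 1 (SD, n = 2 each). These 5 genes had limma adjusted p values between 0.0871 and 0.0922.

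On the lower side, LGALS1, the galactose-binding lectin galectin 1, had 795 and 876 RPKM at day 2, against 3512 and 2517 RPKM at day 1. QSOX1, an enzyme that forms disulphide bonds in secreted proteins, had 206 and 205 RPKM at day 2, against 583 and 442 RPKM at day 1. FSCN1, which bundles actin filaments, had 60.7 and 77.0 RPKM at day 2, against 177 and 238 RPKM at day 1. In each of the 3 genes the higher day 2 library stayed below the lower day 1 library, and the limma adjusted p values lay between 0.0922 and 0.0978.

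TSPO, a cholesterol-binding protein of the outer mitochondrial membrane, had 9.42 and 6.54 RPKM at day 2, against 63.5 and 63.4 RPKM at day 1. H2AX, the histone variant phosphorylated at DNA breaks, had 5.90 and 15.8 RPKM at day 2, against 65.8 and 69.4 RPKM at day 1. MFAP4, a glycoprotein of elastic fibres, and CLEC11A, a secreted growth factor of the C-type lectin fold, averaged 8.32 ± 0.396 and 16.5 ± 3.19 RPKM at day 2, against 45.5 ± 16.3 and 92.0 ± 39.1 RPKM at day 1 (SD, n = 2 each). NDUFS8 and RPS2, which the same rule named, are given with the respiratory chain and ribosomal proteins below.

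**Figure D2:**
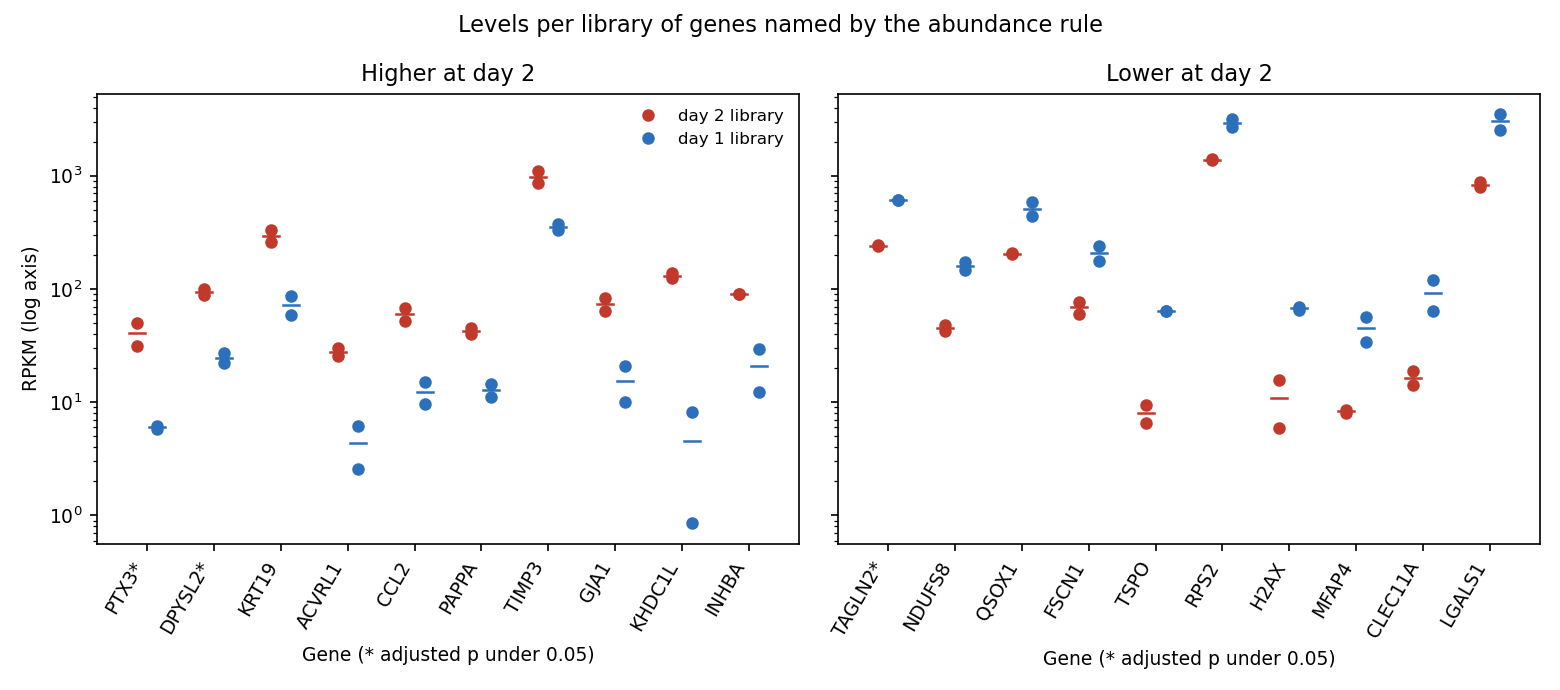
RPKM (log axis) of the 10 genes named in each direction by the abundance rule, in the 2 day 2 and the 2 day 1 libraries; points are libraries, short lines are means and an asterisk marks an adjusted p under 0.05. No day 2 library overlaps a day 1 library for any gene shown, which the rule required, and only PTX3, DPYSL2 and TAGLN2 carry an asterisk.

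Genes of the cleavage-stage embryo included LEUTX and KDM4E, which passed the adjusted test, and KHDC1L. Of 9 covered members, 7 were tested, and 6 of these had both libraries at 1 RPKM or more on day 2 only. No median is given for this reason. LEUTX, KDM4E, PRAMEF12 and DUXA were below 1 RPKM in both day 1 libraries, so the filter set their direction. KHDC1L and RFPL4A were at 1 RPKM or more in 1 of the 2 day 1 libraries. RFPL4B alone had both libraries at 1 RPKM or more on day 1 as well. The 2 members not tested, ARGFX and TRIM64, were below 1 RPKM in at least 3 of the 4 libraries.

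RFPL4B, a RING finger protein of the ret finger protein-like family, had 24.1 and 26.1 RPKM at day 2, against 2.45 and 5.66 RPKM at day 1. RFPL4A, of the same family, had 13.7 and 23.9 RPKM at day 2, against 5.28 and 0 RPKM at day 1. DUXA, a double homeobox factor, had 1.90 and 2.24 RPKM at day 2, against 0.121 and 0 RPKM at day 1. Their limma adjusted p values lay between 0.104 and 0.176.

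PRAMEF genes, a cluster on chromosome 1 related to the tumour antigen gene PRAME, were listed at day 2 more than at day 1. Of 14 covered genes of the family, 5 reached the test, and a gene at 0 on day 1 could reach it only by being higher at day 2. PRAMEF12 had 9.99 and 2.96 RPKM at day 2, PRAMEF11 had 3.20 and 17.4 RPKM, and PRAMEF8 had 3.30 and 8.42 RPKM. All 3 were listed at 0 in both day 1 libraries. At day 3 PRAMEF12 had 1.33 and 5.22 RPKM, PRAMEF11 had 0.393 and 3.19 RPKM, and PRAMEF8 had 1.44 and 7.68 RPKM. Their listing was therefore not limited to day 2. PRAMEF4 and PRAMEF5, also at 0 on day 1, had 6.01 and 5.11 RPKM in day 2 replicate 1 and 1.95 and 1.61 RPKM in replicate 2. Among those not tested, PRAMEF9 and PRAMEF15 both had 1.52 RPKM in day 2 replicate 2 and 0 in the other 3 libraries; their coding sequences are 98.33% identical, so the same reads could serve both.

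TRIM43B, a RING finger gene of the TRIM43 cluster on chromosome 2, had 37.6 and 45.3 RPKM at day 2, against 1.40 and 5.16 RPKM at day 1 (limma adjusted p = 0.102). TRIM49C, on chromosome 11, had 4.87 and 12.7 RPKM at day 2, against 1.18 and 1.06 RPKM at day 1. Of 8 covered genes of the TRIM43, TRIM49 and TRIM64 families, 3 were tested; the other one tested, TRIM49D2, overlapped between the days, with 12.7 and 0.661 RPKM at day 2 and 0 and 1.09 RPKM at day 1.

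Values of such genes depend on how reads of near-identical copies were divided, which the sources used here do not state. TRIM43B and TRIM43 differ at 7 of 1341 coding bases (99.48% identity) and share a run of 618 identical bases. RFPL4A and RFPL4AL1 differ at 5 of 864 coding bases (99.42% identity) and share a run of 296. The 60-base coding windows below, from GENCODE release 29 (GRCh38), are those with the most differences of each pair, with the differing bases in capitals; they start at coding base 452 in the TRIM43 pair and at base 477 in the RFPL4A pair, and show how few positions could separate the copies.
TRIM43B: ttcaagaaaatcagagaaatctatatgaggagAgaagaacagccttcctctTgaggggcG
TRIM43: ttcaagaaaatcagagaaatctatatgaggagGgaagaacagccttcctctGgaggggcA
RFPL4A: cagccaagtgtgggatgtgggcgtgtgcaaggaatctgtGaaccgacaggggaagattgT
RFPL4AL1: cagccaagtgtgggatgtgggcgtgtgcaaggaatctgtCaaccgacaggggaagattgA

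The co-culture libraries, which also hold RNA of mouse embryonic stem cells, were listed at 0 for LEUTX, KDM4E, RFPL4A, RFPL4B, PRAMEF12 and TRIM43B, while KHDC1L was at 0.722 and 0 RPKM and DUXA at 1.74 and 0 RPKM. At day 3, LEUTX was at 0 and 0.382 RPKM and KDM4E at 1.01 and 2.19 RPKM, all below both day 2 libraries. KHDC1L at day 3 was split between replicates, with 15.1 and 107 RPKM, and so was TRIM43B, with 8.91 and 41.4 RPKM. For both genes replicate 2 of day 3 stood near the day 2 values and replicate 1 near those of day 1.

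**Figure D3:**
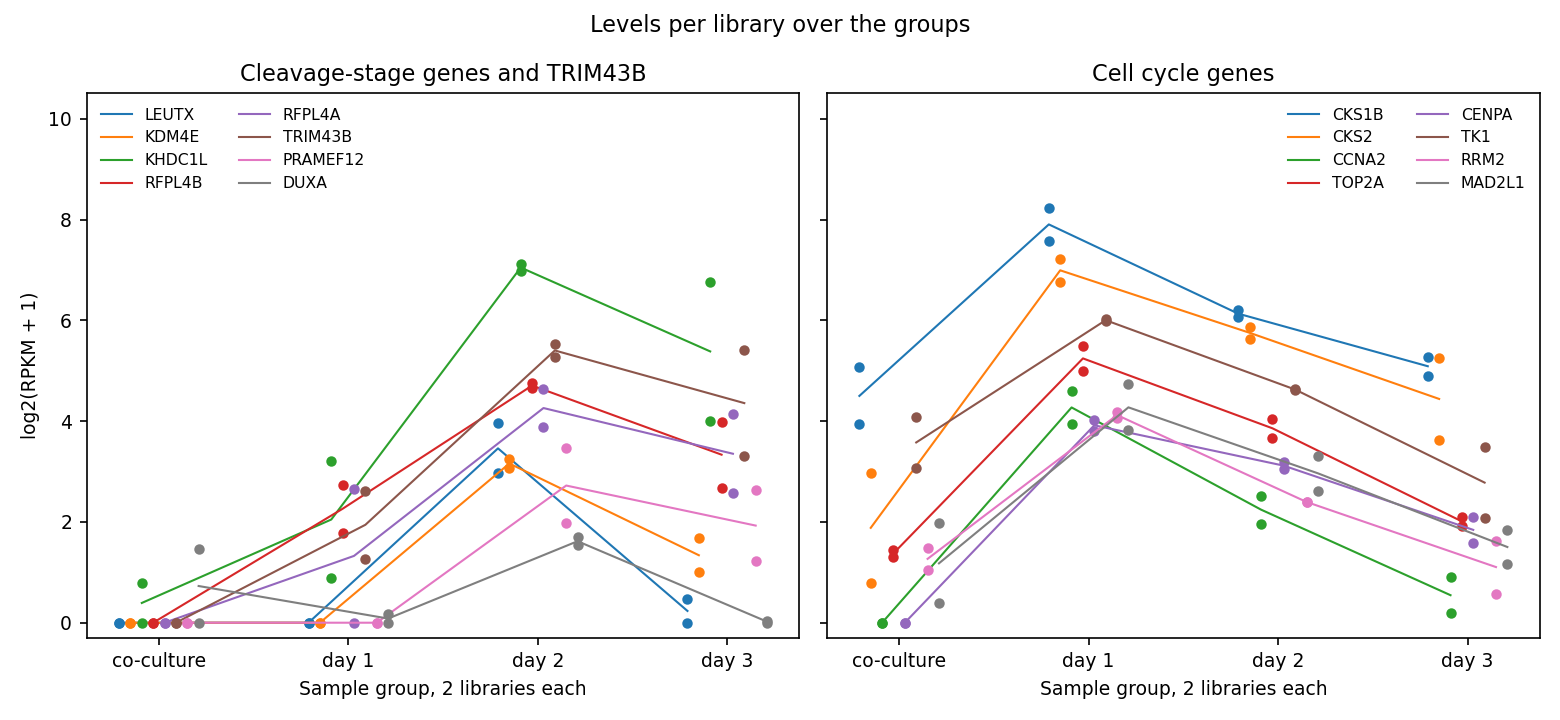
log2(RPKM + 1) of 7 cleavage-stage genes and TRIM43B (left) and of 8 cell cycle genes (right) in co-cultures and in heterokaryons at day 1, day 2 and day 3; points are libraries, 2 per group, and lines join group means. The day 2 points on the left lie above the day 1 points of the same gene, and those on the right below them. The 8 genes on the right were picked from those with lower day 2 libraries. Such genes were 7 of 11 tested for mitosis and G2 and 5 of 15 tested for DNA replication.

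Few pluripotency genes could be tested. Of 7 covered members of the list, 3 were tested and none passed the adjusted test. CRIPTO, a co-receptor for NODAL marking undifferentiated cells, had 5.89 and 9.49 RPKM at day 2 and was listed at 0 in both day 1 libraries (limma adjusted p = 0.104). MYC, a growth-promoting transcription factor, had 57.5 and 60.8 RPKM at day 2, against 18.9 and 40.5 RPKM at day 1 (limma adjusted p = 0.183). KLF5, a zinc finger factor of self-renewal, overlapped between the days at 5.67 and 6.90 RPKM on day 2 and 10.2 and 6.84 RPKM on day 1.

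The other 4 covered pluripotency genes were too low to test. DPPA5 had 1.79 and 0 RPKM at day 2 and 0 in both day 1 libraries, and LIN28B had 0.1005 and 0.998 RPKM at day 2 and 0 in both day 1 libraries. LEFTY2 was at 0 in both day 2 libraries and at 0.689 and 0 RPKM on day 1, and UTF1 was at 0 in all 4. Co-cultures were at 0 and 0.427 RPKM for CRIPTO, and at 0 for DPPA5 and LIN28B.

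Several mitotic genes had lower values at day 2 than at day 1, without an adjusted call. Of 11 tested genes of mitosis and G2, 7 had day 2 libraries below day 1 libraries (background 19.8%) and none had them above. The list's median log2 fold change was -1.24 as deposited (-1.34 when upper quartile scaled, -1.18 when quantile normalized). Of 13 covered members, CENPE and TTK were too low to test.

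CKS1B, a small subunit of cyclin-dependent kinases, had 72.5 and 65.8 RPKM at day 2, against 301 and 189 RPKM at day 1 (limma adjusted p = 0.104). Its homologue CKS2 had 48.4 and 57.8 RPKM at day 2, against 107 and 149 RPKM at day 1. CCNA2, the cyclin of S phase and G2, had 2.90 and 4.75 RPKM at day 2, against 23.2 and 14.4 RPKM at day 1 (limma adjusted p = 0.115). TOP2A, the topoisomerase that untangles sister chromatids, had 11.8 and 15.5 RPKM at day 2, against 44.1 and 30.8 RPKM at day 1 (limma adjusted p = 0.172).

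Both groups outside days 1 and 2 had lower values of these genes. CCNA2 was listed at 0 in both co-cultures and at 0.140 and 0.869 RPKM at day 3, and TOP2A was at 1.49 and 1.71 RPKM in co-cultures and at 2.80 and 3.27 RPKM at day 3. Not all members stood apart: BIRC5 had 5.96 and 0 RPKM at day 2 and 66.6 and 0 RPKM at day 1, and NEK2, BUB1B and CCNF also overlapped between the days.

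DNA replication genes were split. Of 15 tested, 5 had lower and 2 had higher day 2 libraries than day 1 libraries (all genes 19.8% lower and 30.4% higher). The list's median log2 fold change of 0.04 as deposited turned to -0.05 when upper quartile scaled and -0.13 when quantile normalized. RRM2, the small subunit of ribonucleotide reductase, had 4.24 and 4.28 RPKM at day 2, against 15.6 and 17.2 RPKM at day 1. TK1, the thymidine kinase of S phase, had 23.6 and 23.8 RPKM at day 2, against 62.3 and 63.9 RPKM at day 1. MCM3, a subunit of the replicative helicase, had 38.9 and 31.7 RPKM at day 2, against 11.4 and 24.8 RPKM at day 1.

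TK1 and RRM2 replicates agreed within each day, and their limma adjusted p values were 0.224 and 0.165. POLD1, the catalytic subunit of DNA polymerase delta, had 2.14 and 2.24 RPKM at day 2, against 9.27 and 6.47 RPKM at day 1. Histones and their chaperones had 3 of 7 tested genes lower, H2AX among them, and 1 higher (all genes 19.8% lower and 30.4% higher). Of the 7, 2 had both libraries at 1 RPKM or more on day 2 only. The list of p53 and senescence genes had 4 of 7 higher and none lower, to be read against the same shares. MDM2, the ubiquitin ligase that limits p53, had 30.8 and 29.4 RPKM at day 2, against 13.02 and 16.2 RPKM at day 1.

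COL1A1, COL1A2 and COL3A1, chains of fibrillar collagens, had lower values at day 2, whereas COL5A1 had 42.2 and 49.5 RPKM at day 2, against 41.2 and 38.9 RPKM at day 1, and COL5A2 overlapped between the days. Of 17 tested interstitial collagens and matrix genes, 10 had lower and 3 had higher day 2 libraries (backgrounds 19.8% and 30.4%). The median log2 fold change was -0.53 as deposited (-0.62 when upper quartile scaled, -0.28 when quantile normalized), and no member passed the adjusted test.

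COL1A1, the chain that makes up most of type I collagen, had 1576 and 1771 RPKM at day 2, against 2897 and 3000.4 RPKM at day 1 (limma adjusted p = 0.104). COL3A1, the chain of type III collagen, had 73.4 and 110.5 RPKM at day 2, against 159 and 252 RPKM at day 1. Against these, TGFBI, a secreted adhesion protein induced by TGF beta, had 1573 and 1319 RPKM at day 2, against 767 and 969 RPKM at day 1. LOX, which cross-links collagen, had 20.8 and 23.6 RPKM at day 2, against 9.46 and 9.15 RPKM at day 1. COL1A1 at day 3 was at 2980.2 and 2702 RPKM, close to the day 1 values, whereas TGFBI at day 3 was above both days at 2631 and 2151 RPKM.

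Among matrix proteases and their inhibitors, 3 of 10 tested genes were higher and 4 lower (all genes 30.4% higher and 19.8% lower). MMP1, the interstitial collagenase, had 29.2 and 58.4 RPKM at day 2, against 168 and 98.3 RPKM at day 1. MMP10, stromelysin 2, had 0.160 and 0 RPKM at day 2, against 5.09 and 10.2 RPKM at day 1. PLAU, the urokinase plasminogen activator, had 792 and 709 RPKM at day 2, against 399 and 408 RPKM at day 1. TIMP1, another inhibitor of metalloproteinases, had 1361 and 1322 RPKM at day 2, against 3482 and 2909 RPKM at day 1, so TIMP1 lay on the other side from TIMP3. The limma adjusted p values of MMP1, MMP10, PLAU, TIMP1 and TIMP3 lay between 0.0922 and 0.136.

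Basement membrane genes were split, with 2 of 10 tested genes higher and 4 lower (all genes 30.4% higher and 19.8% lower). LAMA4, a laminin chain, had 32.0 and 41.0 RPKM at day 2, against 14.0 and 25.1 RPKM at day 1, and COL15A1 had 0.314 and 0 RPKM at day 2, against 1.17 and 3.63 RPKM at day 1. Of 7 tested elastic fibre genes 3 were higher and 1, MFAP4, was lower.

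Of 11 tested integrins, 5 had higher and 2 had lower day 2 libraries (all genes 30.4% higher and 19.8% lower), with a median log2 fold change of 0.39 as deposited (0.29 when upper quartile scaled, 0.24 when quantile normalized). ITGA2, the alpha chain of a collagen receptor, had 14.6 and 19.9 RPKM at day 2, against 5.02 and 6.19 RPKM at day 1. ITGAV, the alpha chain of vitronectin receptors, had 9.43 and 12.4 RPKM at day 2, against 1.72 and 3.72 RPKM at day 1, and ITGB3, a beta chain that pairs with it, had 7.40 and 4.61 RPKM at day 2, against 1.98 and 2.06 RPKM at day 1. ITGB4, a chain of hemidesmosomes, was at 2.87 and 4.59 RPKM at day 2 and 0.326 and 0.610 RPKM at day 1.

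Of 13 tested TGF beta targets and pathway members, 6 were higher and 2 were lower (all genes 30.4% higher and 19.8% lower). Of the 13, 3 had both libraries at 1 RPKM or more on day 2 only and 1 on day 1 only. INHBA and TGFBI were among the higher. TGFBR2, the type II receptor, had 14.5 and 19.8 RPKM at day 2, against 3.41 and 7.46 RPKM at day 1. ID3, an inhibitor of basic helix-loop-helix factors, was among the lower, with 56.2 and 94.1 RPKM at day 2, against 145 and 183 RPKM at day 1.

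Growth factors and their binding proteins had 8 of 18 tested genes higher and 2 lower (all genes 30.4% higher and 19.8% lower). Of the 18, 5 had both libraries at 1 RPKM or more on day 2 only. IGFBP3, a carrier of insulin-like growth factors, had 100.9 and 54.0 RPKM at day 2, against 8.91 and 18.2 RPKM at day 1 (limma adjusted p = 0.0978). VEGFA, the endothelial growth factor, had 76.1 and 63.0 RPKM at day 2, against 27.6 and 28.5 RPKM at day 1. TNFRSF11B, the decoy receptor osteoprotegerin, had 12.1 and 17.4 RPKM at day 2, against 0 and 0.218 RPKM at day 1 (limma adjusted p = 0.0922). In co-cultures TNFRSF11B was at 58.2 and 55.8 RPKM, above both days, and at day 3 it was split at 30.2 and 4.67 RPKM. The day 1 libraries were the lowest.

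The receptor gene MET had 1.33 and 1.37 RPKM at day 2, against 0.0404 and 0 RPKM at day 1. Genes of Wnt signalling, among them ligands, receptors and antagonists, had 4 of 12 tested genes higher and 1 lower. The higher count was near the share of 30.4% over all genes. WNT5A had 6.21 and 6.23 RPKM at day 2, against 0.480 and 2.67 RPKM at day 1. By contrast, SFRP1, a secreted Wnt antagonist, had 106 and 69.3 RPKM at day 2, against 135 and 199.5 RPKM at day 1. CTNNB1, beta catenin, and FZD7, a Wnt receptor, averaged 105 ± 12.8 and 14.0 ± 0.0864 RPKM at day 2, against 49.5 ± 7.15 and 6.67 ± 0.638 RPKM at day 1 (SD, n = 2 each).

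Of 8 tested genes of inflammation and NF-kB signalling, 5 had higher day 2 libraries and none had lower ones (all genes 30.4% higher and 19.8% lower). Of the 8, 3 had both libraries at 1 RPKM or more on day 2 only, and PTX3 alone passed the adjusted test. IL1B, a cytokine of inflammation, had 126 and 97.0 RPKM at day 2, against 43.6 and 49.95 RPKM at day 1. IL1R1, its receptor, had 28.5 and 13.1 RPKM at day 2, against 3.71 and 3.89 RPKM at day 1. IL1R1 in co-cultures was at 30.7 and 22.3 RPKM, again above day 1.

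Of 11 tested chemokines, 4 were higher and 2 were lower (all genes 30.4% higher and 19.8% lower). Of the 11, 5 had both libraries at 1 RPKM or more on day 2 only and 1 on day 1 only. CCL3 had 13.9 and 19.8 RPKM at day 2, against 0 and 3.34 RPKM at day 1, and CXCL1, which attracts neutrophils, had 13.8 and 4.05 RPKM at day 2 and was listed at 0 in both day 1 libraries. CCL5, which attracts T cells, lay the other way, with 23.1 and 48.8 RPKM at day 2, against 135 and 143 RPKM at day 1 (limma adjusted p = 0.104). CXCL3 had 0.248 and 0 RPKM at day 2, against 8.46 and 8.59 RPKM at day 1. Co-cultures had 0.0894 and 0.459 RPKM of CCL5 and none of CCL3, which was listed at 0.

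In the list of IL6, JAK and STAT genes, 5 of 10 tested were higher and 3 lower (all genes 30.4% higher and 19.8% lower). Of the 10, 2 had both libraries at 1 RPKM or more on day 2 only and 1 on day 1 only. IL6 had 14.2 and 25.3 RPKM at day 2, against 3.995 and 0 RPKM at day 1 (limma adjusted p = 0.104). JAK1, a kinase bound to its receptor, had 41.3 and 44.6 RPKM at day 2, against 17.7 and 18.6 RPKM at day 1. LIF, the cytokine that keeps mouse stem cells undifferentiated, had 22.9 and 25.7 RPKM at day 2, against 17.5 and 14.3 RPKM at day 1 (limma adjusted p = 0.350), and PIM3, a kinase induced by STAT factors, had 8.54 and 18.7 RPKM at day 2, against 43.8 and 32.7 RPKM at day 1. IL6 and LIF were named after their values were seen.

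Interferon-response genes showed no common direction, with 3 of 11 tested genes higher and 3 lower (all genes 30.4% higher and 19.8% lower). Of the 11, 2 had both libraries at 1 RPKM or more on day 2 only and 2 on day 1 only. GBP1, a guanylate-binding protein, had 10.1 and 7.55 RPKM at day 2, against 0.178 and 1.16 RPKM at day 1. ISG20, an exonuclease against viral RNA, had 0.906 and 7.999 RPKM at day 2, against 21.5 and 24.8 RPKM at day 1, and MX2, an antiviral GTPase, had 0.661 and 0 RPKM at day 2, against 2.21 and 2.58 RPKM at day 1.

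HLA-C, a heavy chain of MHC class I, had 239 and 244 RPKM at day 2, against 687 and 499 RPKM at day 1 (limma adjusted p = 0.104). HLA genes resemble each other, and reads may have been divided between them. Of the 4 tested genes of the list, CANX was the only one with higher day 2 libraries. Complement genes had 3 of 10 tested genes higher and 2 lower (all genes 30.4% higher and 19.8% lower). C3 had 43.01 and 44.5 RPKM at day 2, against 9.24 and 22.8 RPKM at day 1. CD55, which blocks complement on cells, was listed at 0 in both day 2 libraries and had 1.90 and 7.31 RPKM at day 1.

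Immediate early genes had 5 of 8 tested genes higher and 2 lower (all genes 30.4% higher and 19.8% lower). Their median log2 fold change was 0.85 as deposited (0.76 when upper quartile scaled, 0.81 when quantile normalized). ATF3, a stress-induced repressor, had 136 and 136 RPKM at day 2, against 55.6 and 73.9 RPKM at day 1, and JUN had 37.4 and 31.4 RPKM at day 2, against 15.4 and 18.4 RPKM at day 1. SRF, a factor that drives immediate early and actin genes, was lower, with 22.3 and 16.2 RPKM at day 2, against 41.9 and 38.0 RPKM at day 1.

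Keratins and contractile genes held some of the larger single differences. Of 11 tested genes of the keratin and epithelial junction list, 4 were higher and 2 lower (all genes 30.4% higher and 19.8% lower). Of the 11, 4 had both libraries at 1 RPKM or more on day 2 only and 2 on day 1 only. Besides KRT19 only KRT81, with 3.10 and 2.45 RPKM at day 2 and 0 in both day 1 libraries, had an unadjusted p under 0.05. KRT19 was at 221 and 144 RPKM at day 3 and at 5.94 and 6.29 RPKM in co-cultures. The 6 covered epithelial markers summed to 284 to 597 RPKM at day 2 and 111 to 156 RPKM at day 1; KRT8 made much of that spread, listed at 0 in day 2 replicate 1 and at 233 RPKM in replicate 2. EPCAM, a defining epithelial surface protein, had 1.80 and 0 RPKM at day 2 and 0 and 2.09 RPKM at day 1, and the part of epithelial cells in the KRT19 values was not tested.

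Of 12 tested genes of the list of muscle contractile genes, 7 were higher and 2 lower (all genes 30.4% higher and 19.8% lower). The list also holds LIM domain genes such as CRIP1 and CRIP2, and the non-muscle myosin gene MYH9. TPM1, a tropomyosin, had 301 and 253 RPKM at day 2, against 58.6 and 44.8 RPKM at day 1 (limma adjusted p = 0.0922); its value sums 7 listed transcripts. TNNT1, slow skeletal troponin T, had 17.5 and 36.9 RPKM at day 2, against 4.81 and 0 RPKM at day 1. CRIP1, a LIM domain protein, had 114 and 131 RPKM at day 2, against 61.6 and 43.1 RPKM at day 1, whereas CRIP2 had 0.116 and 1.66 RPKM at day 2, against 76.1 and 15.4 RPKM at day 1. The 5 covered smooth and skeletal muscle markers summed to 221 to 238 RPKM at day 2 and 124 to 159 RPKM at day 1, and their part in these values was not tested.

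Most tested ribosomal protein genes had lower values at day 2 as deposited. Of 45 tested ribosomal protein genes, 26 had lower and 1 had higher day 2 libraries (backgrounds 19.8% and 30.4%), and none passed the adjusted test. Their median log2 fold change was -0.42 as deposited and -0.52 after upper quartile scaling, but -0.08 after quantile normalization. RPS2 had 1374 and 1406 RPKM at day 2, against 3169.8 and 2677 RPKM at day 1 (limma adjusted p = 0.0922). RPL18 had 289.9 and 358 RPKM at day 2, against 830.1 and 632 RPKM at day 1.

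FAU, a ribosomal protein fused to a ubiquitin-like domain, had 531 and 592 RPKM at day 2, against 1006 and 866 RPKM at day 1. The single higher gene, RPS20, had 44.4 and 71.6 RPKM at day 2 and was listed at 0 in both day 1 libraries, in both co-cultures and in 1 of the 2 day 3 libraries, where the other had 291 RPKM. Ribosomal protein genes have many processed pseudogene copies, and the part of read division in these values was not tested.

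Of 23 tested respiratory chain genes, 7 were lower and 1 was higher (all genes 19.8% lower and 30.4% higher), with a median log2 fold change of -0.27 as deposited (-0.37 when upper quartile scaled, -0.06 when quantile normalized). NDUFS8, a subunit of complex I, had 47.9 and 42.8 RPKM at day 2, against 174 and 148 RPKM at day 1 (limma adjusted p = 0.0871). ATP5F1D, of the ATP synthase, had 4.34 and 13.4 RPKM at day 2, against 35.8 and 36.1 RPKM at day 1, and COX6B1, of cytochrome c oxidase, had 199 and 211 RPKM at day 2, against 418 and 297 RPKM at day 1.

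Proteasome genes had 10 of 27 tested genes lower and 6 higher (all genes 19.8% lower and 30.4% higher). The median log2 fold change of -0.17 as deposited and -0.27 after upper quartile scaling turned to 0.01 after quantile normalization. PSMB3, a subunit of the core, had 167 and 91.9 RPKM at day 2, against 278 and 365 RPKM at day 1. PSMC6 and PSMD3, of the regulatory particle, had 3.67 and 7.30 and 99.5 and 106.5 RPKM at day 2, against 19.5 and 21.8 and 181 and 158 RPKM at day 1.

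MTRNR2L6, a nuclear copy of the mitochondrial humanin sequence on chromosome 7, was listed at 0 in both day 2 libraries and had 12.6 and 14.1 RPKM at day 1 (limma adjusted p = 0.0431). It was also listed at 0 in both co-cultures, and had 0.771 and 2.65 RPKM at day 3. Humanin is a short peptide read from the mitochondrial large ribosomal RNA, and the nuclear copies resemble it and each other. Of 7 tested genes of this family, 3 had lower day 2 libraries and none had higher ones (all genes 19.8% lower and 30.4% higher). The median log2 fold change was -0.81 as deposited (-0.90 when upper quartile scaled, -0.59 when quantile normalized).

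MTRNR2L3 had 14.7 and 13.9 RPKM at day 2, against 30.4 and 35.4 RPKM at day 1 (limma adjusted p = 0.165). MTRNR2L8 overlapped between the days, with 163 and 219 RPKM at day 2 and 329 and 210 RPKM at day 1. The complete coding sequences, again from GENCODE release 29, are shown because their closeness makes the division of reads among them uncertain; capitals mark the bases that differ from MTRNR2L6, 12 in MTRNR2L3 on chromosome 20, 9 in MTRNR2L8 on chromosome 11 and 7 in MTRNR2L1 on chromosome 17, of 75 each.
MTRNR2L6: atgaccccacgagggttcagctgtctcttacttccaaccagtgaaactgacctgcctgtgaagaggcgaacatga
MTRNR2L3: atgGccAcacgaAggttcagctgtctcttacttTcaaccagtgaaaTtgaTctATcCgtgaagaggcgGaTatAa
MTRNR2L8: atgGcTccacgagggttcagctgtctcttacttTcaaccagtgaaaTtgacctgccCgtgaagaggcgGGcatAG
MTRNR2L1: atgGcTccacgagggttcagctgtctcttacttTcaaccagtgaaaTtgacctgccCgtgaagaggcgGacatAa

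Genes of metabolism and stress lay on either side, with counts to be read against 30.4% higher and 19.8% lower over all genes. Hypoxia and glycolysis had 4 of 16 tested genes higher and 5 lower; PFKL, a phosphofructokinase, had 12.2 and 0 RPKM at day 2, against 70.2 and 53.9 RPKM at day 1, while HK2, a hexokinase, had 10.49 and 7.59 RPKM at day 2, against 2.08 and 4.75 RPKM at day 1. Cholesterol synthesis had 2 of 9 higher and 2 lower, with MVK, mevalonate kinase, at 2.30 and 1.05 RPKM at day 2 and 6.87 and 6.43 RPKM at day 1. Antioxidant defence had 3 of 14 higher and 2 lower, and GPX3, a secreted glutathione peroxidase, had 144 and 174 RPKM at day 2, against 74.9 and 67.1 RPKM at day 1. In co-cultures GPX3 was at 3.45 and 4.98 RPKM.

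Lysosomal genes had 5 of 23 tested genes in each direction (all genes 30.4% higher and 19.8% lower). CD63, a tetraspanin of late endosomes, was at 761 and 652 RPKM at day 2 and 1638 and 1095 RPKM at day 1. Iron and haem genes had 6 of 16 higher and 4 lower; UROS had 19.1 and 19.0 RPKM at day 2, against 7.36 and 1.53 RPKM at day 1, and UROD, the next enzyme of haem synthesis, had 0 and 18.1 RPKM at day 2, against 47.0 and 49.04 RPKM at day 1. Heat shock genes had 2 of 7 in each direction, with HSPB1 at 193 and 257 RPKM at day 2 and 377 and 522 RPKM at day 1. Of 3 tested genes of the unfolded protein response 1, ATF3, was higher, and of 3 S100 genes 1 was lower.

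Chromatin regulators had 5 of 11 tested genes higher and 2 lower (all genes 30.4% higher and 19.8% lower). SMARCE1, a subunit of BAF remodelling complexes, had 51.6 and 57.7 RPKM at day 2, against 5.47 and 26.2 RPKM at day 1, and EP300, a histone acetyltransferase, had 20.6 and 20.0 RPKM at day 2, against 6.94 and 11.2 RPKM at day 1. Of 4 tested genes of DNA methylation and repair, 1 was higher and none had an unadjusted p under 0.05.

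**Figure D4:**
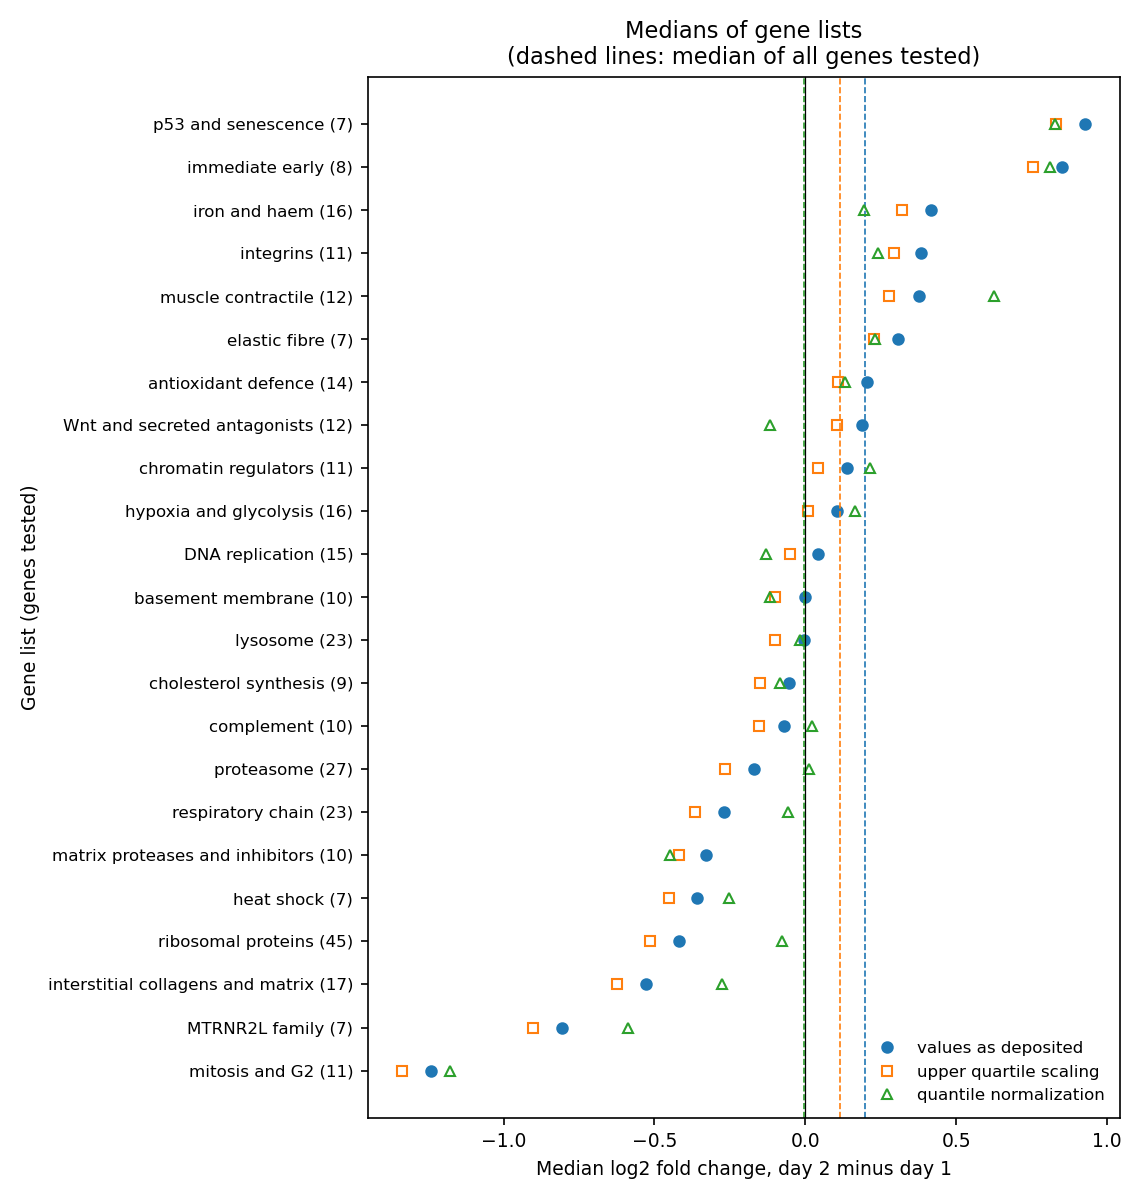
Each row is a gene list with at least 7 tested genes, and the x axis is the median log2 fold change of day 2 minus day 1, with one symbol for each scaling and dashed lines at the medians of all tested genes. Of 32 such lists, 9 were left out of the plot after their values were seen. They were left out because more than 25% of their tested genes had both libraries at 1 RPKM or more on 1 day only. Among the 23 lists shown, mitosis and G2 lies farthest left, at -1.24 with the values as deposited, and p53 and senescence lies farthest right, at 0.93.

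Fibroblast markers included genes with lower values at day 2. Of 11 tested, 7 had lower and 1, COL5A1, had higher day 2 libraries (all genes 19.8% lower and 30.4% higher). Their median log2 fold change was -0.47 as deposited (-0.57 when upper quartile scaled, -0.02 when quantile normalized). P4HB, an enzyme of collagen hydroxylation, had 719 and 739 RPKM at day 2, against 978 and 1143 RPKM at day 1, and VIM, the intermediate filament of mesenchymal cells, had 1608 and 1698 RPKM at day 2, against 2063 and 1828 RPKM at day 1. TAGLN, a smooth muscle and fibroblast actin-binding protein, overlapped between the days.

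The 6 covered endothelial markers summed to 33.7 to 39.2 RPKM at day 2 and 31.7 to 41.6 RPKM at day 1. The 6 haematopoietic markers summed to 3.46 to 3.71 RPKM at day 2 and 0 to 6.74 RPKM at day 1, with CD68 at 0 in all 4 libraries. GFAP, the 1 covered neural marker, was at 0 in all 4, and the 5 covered pluripotency markers summed to 7.78 to 10.49 RPKM at day 2 and 0 to 0.689 RPKM at day 1. CRIPTO made up 5.89 and 9.49 RPKM of the day 2 sums, DPPA5 and LIN28B made up the rest, and LEFTY2 made up the day 1 value of 0.689 RPKM.

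Some genes were listed on 1 day only. In both day 1 libraries 83 covered genes were at 0 while both day 2 libraries had 1 RPKM or more, and 4 genes showed the reverse; at 5 RPKM or more the counts were 9 and 2. The 9 were ALOX5, AURKC, CRIPTO, KDM4E, LEUTX, PPY, PTRHD1, RPS20 and TRIM61, and the 2 were CSNK2A3 and MTRNR2L6. ALOX5, the lipoxygenase that starts leukotriene synthesis, had 6.12 and 5.38 RPKM at day 2, and AURKC, an Aurora kinase of meiosis, had 6.44 and 5.20 RPKM. PTRHD1 had 6.81 and 25.5 RPKM at day 2 and 0 in both day 1 libraries, yet 17.8 and 7.77 RPKM in co-cultures. Its day 3 values were 4.04 and 0.456 RPKM, so a day 3 library also lay near 0. The day 2 libraries also had more genes above 0 in all, and the part of that in these counts was not tested.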

How the data were processed

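Values deposited by the authors are 1 number per RefSeq transcript and library, taken here as RPKM; the unit was inferred from the values, and FPKM or TPM have the same form. The submitters' processing notes name the builds hg19 and mm10; the aligner, and how reads of the 2 species were separated, are not given in the sources used here. Each table of the 8 libraries fitted lists 10000 distinct values in accession order and no 0. The unfused fibroblast replicate 1 table, used in an alternative only, had 17527 rows, of which 5392 were used. Coding (NM) transcripts were summed per gene where all 4 tables covered every coding accession; 985 covered genes have more than 1. Accessions were named with the RefSeq table (17905) or GENCODE annotation (132), and 119 genes within 2 accession numbers of an unnamed accession were set aside.

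log2(RPKM + 1) was fitted with limma 3.58.1 in R 4.3.3 (lmFit, eBayes with trend) over the 8 mixed-species libraries, with Benjamini-Hochberg adjustment over 2122 genes; the steps were tested on simulated data. A library that does not cover a gene entered no value for it. All p-values are two-sided. Genes were named from the upper 50% of abundance where libraries of the days did not overlap, called genes or, to fill 10 per direction, smallest unadjusted p; also up to 4 per list of smallest p and all measured pluripotency members. Members, lists and families were chosen with earlier results of these data known. Alternatives changed the pseudocount, filter, scaling, libraries, coverage, block and trend. The table of 1 unfused fibroblast library was not used, and depth is unknown, so no counting interval is given. A few genes are not reported here.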

Additional observations from a re-analysis of the deposited data

How the results depend on the processing

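The 7 genes called became 0 with a pseudocount of 0.1, without the filter on low values, with a filter at 5 RPKM, after upper quartile scaling, after quantile normalization, and with a spread from only the 4 libraries compared. Without the trend 3 were called, of the same 7, and with genes covered in part 20, including the 7. A pseudocount of 5 and the addition of unfused fibroblasts gave 8 each, and keeping genes beside unnamed accessions gave 7. With 1 library left out the count ran from 0 to 5 and held none of the 7; the 5 came without day 1 replicate 2 and a single call without day 2 replicate 2. At an unadjusted p under 0.05 these settings gave 243 to 711 genes, against 411. All 7 kept their direction under these 16 alternatives. The cause of these losses was not tested.

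No pairing by replicate number was seen. Deviations of same-numbered libraries correlated at r = -0.10 between days 1 and 2, and between -0.11 and 0.10 over 6 pairs of groups. Such correlations cannot show that same-numbered libraries were prepared separately. A replicate block left 0 calls and 372 genes at an unadjusted p under 0.05. A block with the day 2 numbers crossed, chosen after seeing the data, also left 0 calls.

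Libraries of unknown depth limit what a listed 0 can say, and 2 libraries per day limit the precision of every p-value.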

Other observations

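Genes covered only in part, summed over the transcripts covered in all 4 libraries, gave further calls in a fit of 4526 genes, but a change in such a sum can be a change in the division of reads between transcripts. KRT18, the partner keratin of KRT8, had 812 and 770.0 RPKM at day 2, against 104 and 127 RPKM at day 1 (limma adjusted p = 0.0105). SPON2, a secreted matrix protein of the spondin family, had 42.1 and 43.5 RPKM at day 2 and was listed at 0 in both day 1 libraries (limma adjusted p = 0.0105). CD59, which blocks the terminal complement complex, had 49.3 and 30.7 RPKM at day 2, against 1.58 and 2.38 RPKM at day 1 (limma adjusted p = 0.0119). SERPINE2, an inhibitor of thrombin and plasminogen activators, had 3.53 and 1.39 RPKM at day 2, against 75.5 and 85.6 RPKM at day 1 (limma adjusted p = 0.0105). Of the 20 calls, 13 were such genes, and these 4 were named after their values were seen.

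Among the genes set aside beside unnamed accessions, SLC29A1, a nucleoside transporter, had 83.7 and 47.8 RPKM at day 2, against 185 and 197 RPKM at day 1 (limma adjusted p = 0.128).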
